A study of Homo sapiens with 4 samples.

Results

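Condensin and the SMC5/6 complex fold and maintain chromosomes, and 10 genes for their subunits were followed here in HGC27 cells with and without knockdown of AARS1. The genes were taken by symbol from the deposited expression table, and all 10 were among its 14431 listed genes. SMC2, SMC4, SMC5 and SMC6 encode the ATPases. NCAPD2, NCAPG and NCAPH encode the other subunits of condensin I, and NCAPD3, NCAPG2 and NCAPH2 those of condensin II. HGC27 is an undifferentiated human gastric cancer cell line. The control group held 2 libraries of cells labelled wild type, with the letters NC in their sample descriptions. The siAARS1 group held 2 libraries of cells in which a small interfering RNA had lowered AARS1, the alanyl-tRNA synthetase of the cytosol. All 4 cultures were kept in DMEM without glucose, with 10% FBS and 1% antibiotics, and received 25 mM lactate, so no library was without lactate. The labels give 24 h of lactate and the study's own description of this experiment gives another duration, so the time is uncertain. The labels name neither the control RNA nor the time after transfection, and do not say that the replicates were separate cultures. All p-values below therefore measure only the spread between these libraries, which may be technical.

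SMC proteins form rings that use ATP to pull DNA into loops. In condensin, SMC2 and SMC4 pair at a hinge, a kleisin (NCAPH or NCAPH2) closes the ring, and a pair of HEAT-repeat subunits (NCAPG with NCAPD2, or NCAPG2 with NCAPD3) binds it and the DNA. Condensin II resides in the nucleus through interphase, and condensin I reaches the chromosomes after the nuclear envelope breaks down in mitosis. SMC5 and SMC6 form another ring, which acts in DNA repair and replication and carries its own set of non-SMC subunits named NSMCE.

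What sets the ATPases apart from the NCAP subunits can be read in their coding sequences. Each of the 4 SMC transcripts held 1 match to the Walker A motif, the loop that grips the phosphates of ATP, and none of the 6 NCAP transcripts held one. The stretches below are 72 coding bases each, with the 24 bases of the loop in capitals, from GENCODE v29 transcripts on GRCh38. They are shown because they mark the ATPase class by which the genes are compared.
SMC2: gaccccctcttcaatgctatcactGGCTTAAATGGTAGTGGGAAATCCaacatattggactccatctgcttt
SMC4: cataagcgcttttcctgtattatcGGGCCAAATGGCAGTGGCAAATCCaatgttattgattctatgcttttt
SMC5: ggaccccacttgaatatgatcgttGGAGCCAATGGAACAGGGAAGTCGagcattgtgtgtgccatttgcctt
SMC6: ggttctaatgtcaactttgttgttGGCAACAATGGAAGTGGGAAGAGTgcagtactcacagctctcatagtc
The loop begins at residue 32 of SMC2 (ENSG00000136824, chr9:104094260-104141417, plus strand) and at residue 113 of SMC4 (ENSG00000113810, chr3:160399274-160434962, plus strand). It begins at residue 80 of SMC5 (ENSG00000198887, chr9:70258962-70354888, plus strand) and at residue 76 of SMC6 (ENSG00000163029, chr2:17663812-17800242, minus strand). The chosen transcripts of these genes were long and poor in GC, at 5233 to 5992 bases and 36.6% to 37.6% GC.

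The targeted gene was examined first. Levels are given in CPM, the reads of a gene relative to all reads of its library. AARS1, listed under its older symbol AARS, was at 428 and 417 CPM in the control libraries and at 292 and 298 CPM in the siAARS1 libraries. Its level fell by 0.52 on the log2(CPM + 1) scale (SE 0.0357, limma adjusted p = 2.52e-11), and its mean CPM was 69.7% of that in control. The size of this fall depended on the processing. With each library scaled to its median gene, the log2 fold change was -0.75. It was -0.30 after the correction for transcript GC content and length described below, and -0.37 after that for coding sequence and 3' UTR. Over all listed genes, the depth was 30653210 to 33522573 reads a library, and 1 read was worth 0.0293 to 0.0324 CPM. Of the 14199 genes tested, 4633 were called higher and 5399 lower in siAARS1 (limma, adjusted p under 0.05), and the median log2 fold change of all of them was -0.05. With each library scaled to its median gene the split was 3338 higher and 8077 lower, and the median was -0.27. As for the labelled cell type, 2 of 5 epithelial markers were listed (KRT8 and CDH1), with a summed level of 27.0 to 27.3 CPM in control and 6.14 to 7.29 CPM in siAARS1. All 6 mesenchymal or fibroblast markers were listed, with sums of 7951 to 7989 and 6705 to 6892 CPM. VIM and COL1A1 made up most of these sums. LUM was higher in siAARS1 (118 and 125 CPM in control, 211 and 225 in siAARS1) and COL1A2 lower (128 and 131 CPM in control, 60.7 and 61.9 in siAARS1). None of 3 endothelial markers and 1 of 5 blood markers (CD68, at most 1.10 CPM) was listed. The part of these differences in the results below was not tested. In bulk RNA, fewer cells of a kind and less RNA per cell cannot be told apart.

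All 4 SMC ATPase transcripts rose, by 6.16-fold to 8.83-fold in mean CPM, whereas NCAPG was the single NCAP subunit to rise by at least 2-fold. All 10 genes passed the filter on low values. Of them, 7 were called higher, against 32.6% of all genes tested, 1 was called lower, against 38.0%, and 2 were not called. A rise of at least 2-fold was called for 5 of the 10, against 10.6% of all genes. Both siAARS1 libraries lay above both control libraries for 8 of the 10 (38.5% of all genes) and below them for the other 2 (46.6% of all genes). The 4 ATPases were all called higher, with a median log2 fold change of 2.65, and the 6 NCAP subunits counted 3 higher, 1 lower and 2 not called, with a median of 0.16. Without NCAPG the NCAP median was 0.06.

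SMC2 and SMC4 are the ATPase pair shared by condensin I and condensin II. SMC2 was at 10.8 and 10.6 CPM in the control libraries and at 90.2 and 98.3 CPM in the siAARS1 libraries. These means, 10.7 ± 0.122 and 94.3 ± 5.76 CPM (SD, n = 2), stood 8.83-fold apart. On the log2 scale SMC2 rose by 3.03 (SE 0.0646, limma adjusted p = 7.89e-20), which ranked 7 among all genes by size of rise. SMC4 was at 17.1 and 18.1 CPM in control and at 111 and 125 CPM in siAARS1, a 6.70-fold difference of the means. On the log2 scale this was 2.68 (SE 0.0607, limma adjusted p = 1.73e-19). In both genes the siAARS1 libraries lay far above the controls, and the second siAARS1 library was the higher of the pair.

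SMC5 and SMC6, the ATPases of the repair complex, started from lower levels. SMC5 was at 6.07 and 6.52 CPM in control, 207 reads in each library, and at 36.6 and 41.0 CPM in siAARS1. Its means differed 6.16-fold (log2 fold change 2.45, SE 0.0865, limma adjusted p = 2.24e-16). SMC6 was at 8.62 and 7.82 CPM in control and at 51.6 and 59.8 CPM in siAARS1. Its means differed 6.77-fold (log2 fold change 2.62, SE 0.0816, limma adjusted p = 2.63e-17). The second siAARS1 library was again the higher one for both genes. Leaving out any 1 library kept every ATPase between 2.37 and 3.09 on the log2 scale.

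NCAPG, a HEAT-repeat subunit of condensin I (ENSG00000109805, chr4:17810902-17844862, plus strand), was the NCAP gene that moved with the ATPases. It was at 13.8 and 14.4 CPM in control and at 74.0 and 77.8 CPM in siAARS1, a 5.38-fold difference. The change amounted to 2.35 on the log2 scale (SE 0.0628, limma adjusted p = 2.28e-18). The other condensin I subunits had far smaller changes. NCAPD2, the other HEAT-repeat subunit (ENSG00000010292, chr12:6493356-6531955, plus strand), was the most abundant gene of the 10. It was at 445 and 444 CPM in control and at 396 and 386 CPM in siAARS1, and fell by 0.19 on the log2 scale (SE 0.0350, limma adjusted p = 7.4e-05). NCAPH, the kleisin (ENSG00000121152, chr2:96335787-96373845, plus strand), was at 69.4 and 71.6 CPM in control and at 73.3 and 74.2 CPM in siAARS1. Its log2 fold change of 0.06 was not called, with a 95% confidence interval of -0.03 to 0.16 (limma adjusted p = 0.228).

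The condensin II subunits shifted by less than 2-fold. NCAPG2, the counterpart of NCAPG (ENSG00000146918, chr7:158631311-158704829, minus strand), was at 96.4 and 97.6 CPM in control and at 149 and 151 CPM in siAARS1. It rose by 0.62 on the log2 scale (SE 0.0414, limma adjusted p = 1.32e-11). NCAPD3, the counterpart of NCAPD2 (ENSG00000151503, chr11:134150119-134225454, minus strand), was at 111 and 117 CPM in control and at 136 and 135 CPM in siAARS1, and rose by 0.25 on the log2 scale (SE 0.0427, limma adjusted p = 1.98e-05). With median scaling the NCAPD3 change was 0.02 and was not called (limma adjusted p = 0.68). NCAPH2, the kleisin of condensin II (ENSG00000025770, chr22:50508216-50523472, plus strand), was at 80.1 and 78.6 CPM in control and at 77.6 and 76.8 CPM in siAARS1. Its log2 fold change of -0.04 was not called, with a 95% confidence interval of -0.13 to 0.06 (limma adjusted p = 0.461). With median scaling both kleisins were called lower, NCAPH at -0.17 (limma adjusted p = 0.00299) and NCAPH2 at -0.27 (limma adjusted p = 1.28e-05). That scaling called 3 of the 10 genes lower, NCAPD2 with the kleisins, against 56.9% of all genes, and 23.5% of all genes higher.

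Levels were compared between genes per kilobase (kb) of transcript. In control cells the order was NCAPD2 at 80.2, NCAPH2 at 39.0, NCAPH at 25.5, NCAPG2 at 24.5 and NCAPD3 at 22.4 CPM per kb. Well below them came SMC4 at 3.22, NCAPG at 3.03, SMC2 at 1.78, SMC6 at 1.57 and SMC5 at 1.05 CPM per kb. No neighbours in that order had overlapping libraries, although SMC4 at 3.13 to 3.31 and NCAPG at 2.96 to 3.10 nearly touched. The 5 genes of the lower block were the ones that rose at least 2-fold. In siAARS1 cells NCAPD2 was at 70.5 CPM per kb, and SMC4, NCAPG and SMC2 had come up to 21.6, 16.3 and 15.7 CPM per kb. There NCAPG2 and NCAPH2, at 37.9 CPM per kb each, overlapped, as did NCAPD3 at 26.8 with NCAPH at 26.7 and NCAPG with SMC2. SMC6 at 10.6 and SMC5 at 6.49 CPM per kb remained lowest.

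**Figure D1:**
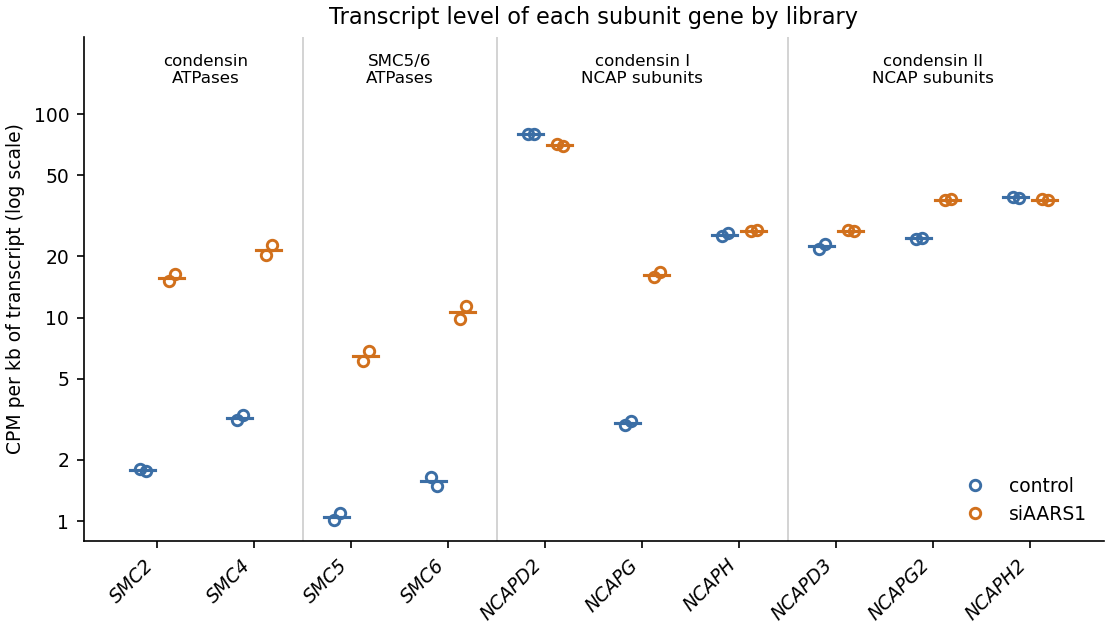
Level of each of the 10 genes in CPM per kb of transcript on a log axis, with open circles for the 2 control and 2 siAARS1 libraries and bars for their means. The means of the 4 ATPases and NCAPG lie at 1.05 to 3.22 in control and at 6.49 to 21.6 in siAARS1, whereas the means of the other 5 genes are 22.4 or more in both groups.

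Per kb and without a correction for base composition, the subunit transcripts of condensin were closer to each other in the siAARS1 libraries. Among the 8 condensin genes, the highest (NCAPD2) was 44.7 and 45.3 times the lowest (SMC2) per kb in the control libraries, and 4.75 and 4.24 times in the siAARS1 libraries. Within a library, the mean log2(CPM + 1) of the 4 ATPases minus that of the 6 NCAP subunits was -2.97 and -3.00 in control and -0.88 and -0.73 in siAARS1. The difference thus changed by 2.18 ± 0.113 (SD, n = 2 libraries a group), given here as a description without a test. Under the corrections for base composition given below, this change was 0.94 and 0.48. The differences that follow are as deposited. SMC2 minus SMC4, partners in 1 ring, moved by 0.35 ± 0.0734, from -0.67 to -0.32. SMC6 minus SMC5 moved by 0.17 ± 0.157, which is about its own spread. In condensin I, NCAPG minus NCAPD2 moved by 2.53 ± 0.0906 and NCAPG minus NCAPH by 2.28 ± 0.0409. The last pair went from -2.24 to 0.04, so NCAPG and NCAPH had nearly the same CPM in siAARS1. Between the complexes, NCAPG minus NCAPG2 moved by 1.72 ± 0.0470, NCAPD2 minus NCAPD3 by -0.44 ± 0.0581 and the kleisins NCAPH minus NCAPH2 by 0.10 ± 0.0533.

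**Figure D2:**
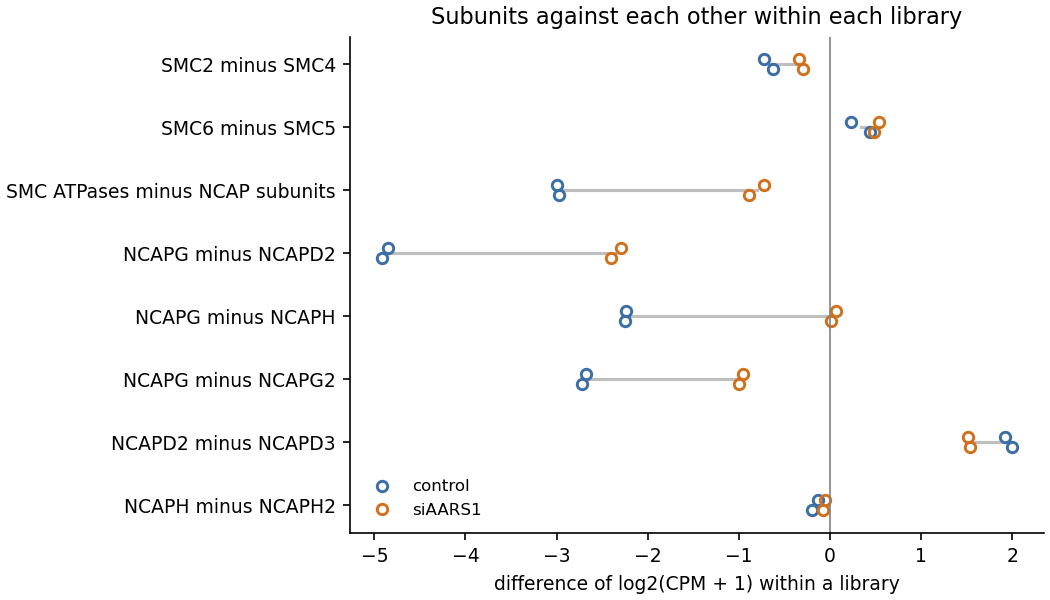
Differences of log2(CPM + 1) between subunits within each library, as deposited, without a correction for base composition. Open circles mark the 2 control and 2 siAARS1 libraries, and a line joins the group means. The ATPases move toward the NCAP subunits by 2.18 and NCAPG toward NCAPH by 2.28, while the kleisins NCAPH and NCAPH2 keep a difference of -0.17 in control and -0.07 in siAARS1.

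The GC content of the transcript moved with the fold change. The 5 genes that rose at least 2-fold had 36.6% to 39.0% GC, NCAPG2 had 43.8%, NCAPD3 47.6%, NCAPH 47.8%, NCAPD2 52.5% and NCAPH2 62.1%. Across the 10 genes, GC content and log2 fold change had a Pearson r of -0.87 and a Spearman rho of -0.90. Within the 4 ATPases, which span little GC content, r was 0.69. Other properties moved with the fold change of the 10 genes too. Transcript length had a rho of 0.56. Control CPM per kb, which shares the control values with the fold change, had a rho of -0.84. The points share the 4 libraries, and genes are not independent replicates. Over the 13819 tested genes with a known transcript, GC content and log2 fold change had a rho of -0.65. When those genes were split into 5 bins of GC content, the lowest (27.9% to 41.5%) had a median log2 fold change of 0.77, and 39.4% of its genes were called at least 2-fold higher. That bin held all 4 ATPases and NCAPG. In the next bin (41.5% to 46.6%), which held NCAPG2, the share was 13.1% and the median 0.21. The middle bin, with NCAPD2, NCAPH and NCAPD3, had a share of 1.12% and a median of -0.12. The highest bin, with NCAPH2, had a median of -0.30.

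**Figure D3:**
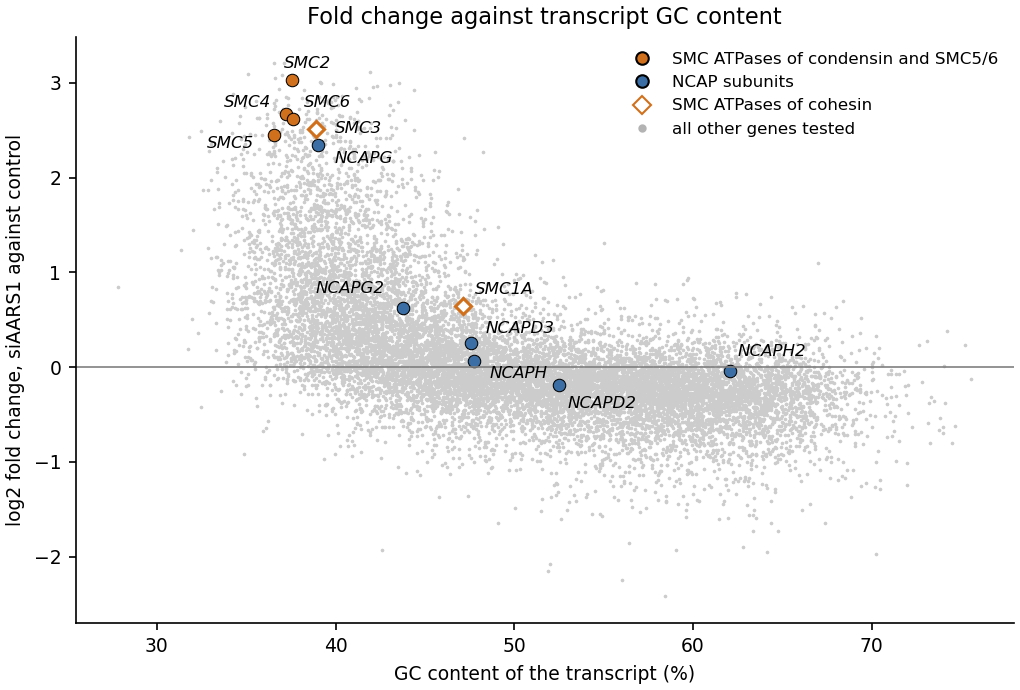
Log2 fold change of siAARS1 against control plotted against the GC content of the transcript in percent, for the 13819 tested genes with a known transcript, with the 10 genes and cohesin SMC1A and SMC3 marked. The ATPases and NCAPG sit at 36.6% to 39.0% GC among the larger rises, and the other NCAP subunits, at 43.8% GC or more, lie at -0.19 to 0.62.

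The values were recomputed with the smooth trend of each library against transcript GC content and length taken out, which also removes any true change that follows these properties. The log2 fold changes of the ATPases then were 1.60 for SMC2, 1.30 for SMC4, 0.97 for SMC5 and 1.35 for SMC6, and that of NCAPG was 1.32, each still called higher. NCAPD2 went to 0.01 and was no longer called (limma adjusted p = 0.817), and NCAPH2 turned to 0.32. A separate correction took out, from the uncorrected values, the trend against GC content and length of the coding sequence and 3' UTR. It gave 0.81 for SMC2, 0.44 for SMC4, 0.23 for SMC5, 0.50 for SMC6 and 0.57 for NCAPG. All 5 were still called higher and none by 2-fold, against 1.15% of all genes by 2-fold, while NCAPG2 and NCAPD3 turned to -0.43 and -0.22. Of the 10 genes, 9 were called higher and 0 lower under the first correction, and 6 higher and 3 lower under the second. NCAPH2 was among those called higher in both, at 0.32 and 0.30. Lower calls over all genes were 33.3% and 31.6%. Higher calls over all genes were 32.7% and 34.2%. The change of the ATPase minus NCAP difference was 0.94 under the first correction and 0.48 under the second. Whether base composition acts on these transcripts in the cell or on their reads in library preparation was not tested.

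**Figure D4:**
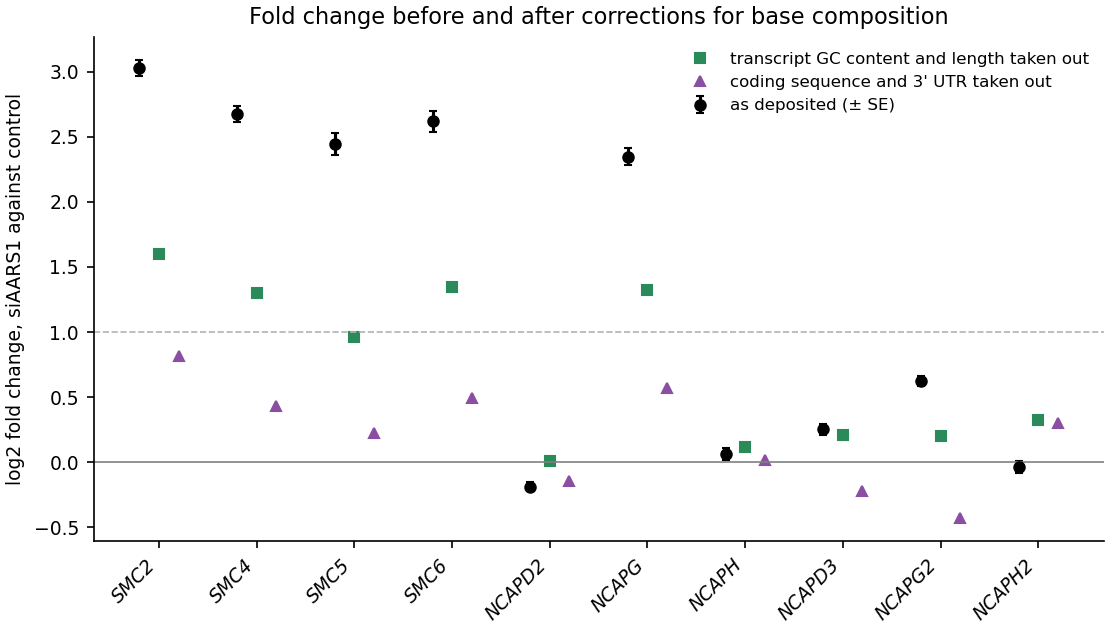
Log2 fold change of the 10 genes as deposited (black circles with SE), with the trend of transcript GC content and length taken out (squares), and with that of coding sequence and 3' UTR taken out (triangles), with a dashed line at 2-fold. The ATPases and NCAPG stay above 0 in all 3 and are below the dashed line in the last, where they reach at most 0.81.

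Cohesin, the nearest relative of these complexes, has an ATPase pair whose genes differ in base composition. SMC3, at 38.9% GC, was at 5.54 and 4.95 CPM in control and at 34.1 and 35.2 CPM in siAARS1 (log2 fold change 2.51, SE 0.0893, limma adjusted p = 2.37e-16). SMC1A, at 47.1% GC, was at 270 and 278 CPM in control and at 427 and 428 CPM in siAARS1 (log2 fold change 0.64, SE 0.0356, limma adjusted p = 6.14e-13). SMC3 thus had a fold change within the range of the 4 ATPases above, and that of SMC1A was close to NCAPG2. SMC3 minus SMC1A moved by 1.87 ± 0.129 within libraries, from -5.46 to -3.59. A list of 5 other SMC and SMC-like ATPases held SMC1A and SMC3 again, with SMC1B, RAD50 and SMCHD1. Of these 5, 4 were tested and all 4 were called higher (32.6% of all genes were). RAD50, the ATPase of the MRN repair complex, was at 2.52 and SMCHD1, which acts in X inactivation, at 2.93. The 4 tested genes had a median log2 fold change of 2.52. That median was 1.47 after the correction for GC content and length and 0.47 after that for coding sequence and 3' UTR. All 4 were still called higher after each. SMC1B was not analysed here.

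Of the 7 other genes of the SMC5/6 complex, its non-SMC subunits and loaders, 6 were tested, with 2 called higher, 2 lower and 2 not called, and a median log2 fold change of 0.05. These shares, 33.3% each way, were close to the 32.6% higher and 38.0% lower of all genes. The loaders SLF1 (listed as ANKRD32) and SLF2 (listed as FAM178A), which bring the complex to damaged DNA, were higher by 2.25 and 2.0. After the correction for coding sequence and 3' UTR, SLF1 was at -0.06 and no longer called (limma adjusted p = 0.607), and SLF2 was at 0.21. The core subunits NSMCE1, with a RING domain, and NSMCE3 (listed as NDNL2), its binding partner, were lower by values of -0.49 and -0.28. With median scaling, 2 of the 6 were called higher and 4 lower, beside 23.5% and 56.9% of all genes. EID3 was not analysed here.

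Of 11 non-SMC subunits and regulators of cohesin, 9 were called higher, all by at least 2-fold, none lower, and the median log2 fold change was 1.99. Of all genes, 32.6% were called higher and 10.6% at least 2-fold higher. The median of the list was 0.88 after the correction for GC content and length and 0.25 after that for coding sequence and 3' UTR. The first correction left 11 called higher and 0 lower, beside 32.7% and 33.3% of all genes. The second left 9 higher and 1 lower, beside 34.2% and 31.6% of all genes. The largest rises were those of STAG2, a core subunit, at 3.21, and NIPBL, the cohesin loader, at 2.80, which were 0.87 and 0.17 after the latter correction. Their transcripts had a median GC content of 40.2%. The list of condensin regulators and mitotic chromosome partners counted 8 higher, 3 lower and 3 not called of 14, beside 32.6% higher and 38.0% lower of all genes, with a median of 0.33. After the correction for coding sequence and 3' UTR it counted 6 higher and 6 lower, beside 34.2% and 31.6% of all genes. The median was then -0.02. TOP2A, the topoisomerase that works beside condensin in mitosis, rose from a mean of 60.7 to 496 CPM (log2 fold change 3.01). TOP2B rose by 2.59 and MKI67, a coat protein of mitotic chromosomes, by 2.27. After the correction for coding sequence and 3' UTR, TOP2A was at 0.88, TOP2B at 0.45 and MKI67 at 1.26, all still called higher. MKI67, at 48.3% GC, was still higher by at least 2-fold there, as were 1.15% of all genes. AURKB, a kinase that phosphorylates condensin I, had a log2 fold change of -0.41. It was -0.08 and not called after the correction for GC content and length (limma adjusted p = 0.0514). After that for coding sequence and 3' UTR it was -0.13 and called lower (limma adjusted p = 0.00278). With median scaling this list counted 7 higher and 6 lower, and the cohesin list 9 higher and 2 lower. Of all genes, 23.5% were called higher and 56.9% lower with that scaling.

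The cell cycle lists were mixed. Of 20 G2/M genes, 11 were called higher, 6 of them by at least 2-fold, 6 lower and 3 not called, with a median of 0.33. Of all genes, 32.6% were called higher, 10.6% at least 2-fold higher and 38.0% lower. The mitotic kinase TTK was at 2.54, the kinetochore protein CENPF at 2.38 and the spindle motor KIF11 at 2.32, and securin, PTTG1, was at -0.50. After the correction for coding sequence and 3' UTR, CENPF was at 0.06 and not called (limma adjusted p = 0.281), TTK at 0.82 and KIF11 at 0.40, and the list counted 6 higher and 7 lower. After the correction for GC content and length the G2/M genes counted 11 higher and 3 lower, beside 32.7% and 33.3% of all genes. With median scaling they counted 10 higher and 9 lower. Of 16 S-phase genes, 9 were called higher, 1 lower and 6 not called, with a median of 0.14. POLA1, the catalytic subunit of the primase-polymerase, was at 1.98, RRM1, a subunit of ribonucleotide reductase, at 0.66, MCM6, part of the replicative helicase, at 0.65, and CDT1, which licenses origins, at -0.22. Under the correction for coding sequence and 3' UTR, RRM1 turned to -0.22 and CDT1 to 0.15. The shares called higher in the G2/M and S-phase lists, 55.0% and 56.3%, stood beside 32.6% of all genes. With median scaling, 3 of the 16 S-phase genes were called higher and 8 lower, beside 23.5% and 56.9% of all genes. The share called higher was then not above that of all genes. After either correction, for GC content and length or for coding sequence and 3' UTR, 13 were called higher and 2 lower. Of all genes, 32.7% and 34.2% were called higher there, and 33.3% and 31.6% lower. The cell cycle phase of the cultures was not measured in these files.

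**Figure D5:**
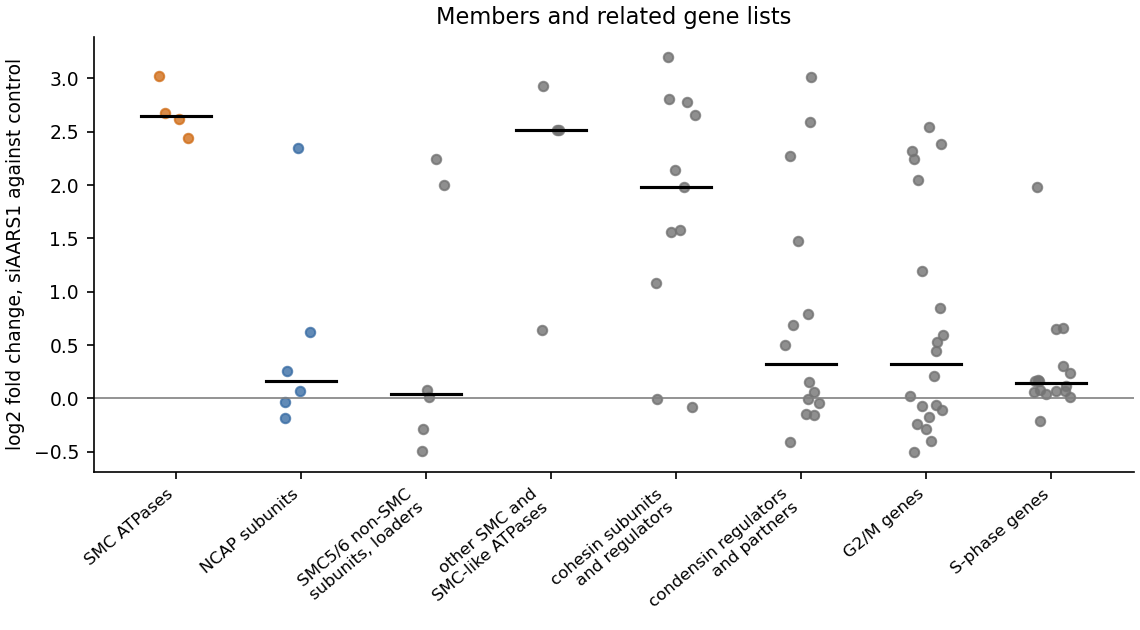
Log2 fold change of siAARS1 against control for each tested gene of the 4 ATPases, the 6 NCAP subunits and 6 related lists, with 1 point a gene, spread sideways for sight, and a bar for the median. The ATPases (median 2.65), the other SMC-like ATPases (2.52) and the cohesin genes (1.99) stand above the NCAP subunits (0.16), and the other 4 lists have medians of 0.05 to 0.33 with points on both sides of 0, all as deposited, without a correction for base composition.

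Promoters were searched because mitotic genes often carry a CHR element (TTTGAA). RefSeq promoter windows of 250 bases before to 50 after a start (GRCh38.p14) were found for 9 of the 10 genes, all but NCAPH2, as 12 windows. On either strand, TTTGAA was in windows of 6 genes, SMC2, SMC4, NCAPG, NCAPD2, NCAPD3 and NCAPG2, and in 6 of the 12 windows against 15.2% of all 35116 windows. Among these 6 were SMC2, which rose most of the 10, and NCAPD2, which fell, and no match was in the windows of SMC5 and SMC6. CCAAT was in 3 windows (34.6% of all), an E2F site (TTTCCCGC, TTTGGCGC, TTTCGCGC or TTTGCCGC) in 2 (3.31% of all), and the TEAD motif GGAATG in 1, of SMC4 (14.0% of all). None of these motifs contains another, although TTTGAA and some E2F forms share their first letters. Stretches of 36 bases around TTTGAA, or its reverse complement, in capitals, are shown for a gene of each kind, an ATPase, the NCAP gene that rose most and the one that fell.
SMC4: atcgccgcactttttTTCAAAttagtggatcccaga
NCAPG: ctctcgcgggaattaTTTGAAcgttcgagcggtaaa
NCAPD2: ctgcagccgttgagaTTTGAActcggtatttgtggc
Positions are counted from the RefSeq start of the window. The outermost gene starts of GENCODE v29 given above lie upstream of these stretches. They lie at chr3:160399560-160399595 for SMC4, 75 bases before that start and with the motif on the reverse strand, at chr4:17810929-17810964 for NCAPG, 35 bases before the start, and at chr12:6493942-6493977 for NCAPD2, 145 bases before. All 3 are printed on the plus strand, which is the strand of the genes. A match of letters does not show that a factor binds there.

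Some exons are shared with genes on the other strand, and the strand setting of the counting is not given in the sources used here, so reads of such pairs cannot be told apart. NCAPG shares 33.1% of its exon bases with LCORL (2.61 and 3.66 CPM in control, 8.97 and 9.48 in siAARS1), and SMC4 shares 18.5% with TRIM59 (at most 2.11 CPM) and 7.18% with IFT80 (3.58 and 3.28 CPM in control, 13.4 and 15.4 in siAARS1). These neighbours were below the CPM of NCAPG and SMC4 in each library. NCAPD2 shares 7.49% of its exon bases with MRPL51, which had a log2 fold change of -0.17, and SMC6 shares 1.09% with GEN1, which had 2.43. NCAPD3 shares 5.10% with JAM3 and 2.73% with VPS26B, whose values are not given here. SMC4, NCAPD2 and NCAPG have pseudogenes by name (SMC4P1, NCAPD2P1, NCAPGP1 and NCAPGP2), and reads divided with them would make their values uncertain.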

How the data were processed

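RNA of 4 HGC27 libraries was sequenced, and the titles gave the group and number of each library. The authors deposited 1 table of CPM values, in which every listed gene exceeded 1 CPM in at least 1 library. The submitters' processing notes name RSEM 1.3.3 and hg38. The aligner, the gene annotation and the use of strand are not given in the sources used here. Within 0.0005 CPM, 100% of the values were whole multiples of 1 read, and these recovered reads gave the depths. Such depths cover counting error only. CPM does not correct for gene length or base composition.

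Genes whose mean reached 1 CPM in either group were fitted on log2(CPM + 1) with limma 3.58.1 (eBayes with trend, R 4.3.3), siAARS1 against control, and p-values were adjusted over all genes by the Benjamini-Hochberg method. The pseudocount of 1 understates the fold change of low genes. A call needs an adjusted p under 0.05, and a 2-fold call also a log2 change of at least 1. The chi-square between replicates was 3.63 (control) and 3.62 (siAARS1) per gene, above sampling noise, so all 4 libraries were kept as separate samples.

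Alternatives were a pseudocount of 0.1, no filter, median scaling, quantile normalization, a replicate block, each library left out, both composition corrections (mgcv 1.9.3), and edgeR 4.0.16 and DESeq2 1.42.0 on the recovered reads. Loci, transcripts and lengths are those of GENCODE v29, which held 97.2% of the identifiers, and promoters are those of RefSeq (GRCh38.p14). The motif of the ATP loop was found by translating the transcripts.

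All 10 members are named. AARS1, SMC1A, SMC3 and up to 4 genes of each list, the largest called rise and fall and the next in size, are named too, and genes that overlap members were added after their values were seen. The members and lists were chosen with earlier results of these data known.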

Additional observations from a re-analysis of the deposited data

How the results depend on the processing

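The rises of SMC2, SMC4, SMC5, SMC6 and NCAPG kept their direction and call in all 10 alternatives, with log2 fold changes of 0.81 to 3.19, 0.44 to 2.80, 0.23 to 2.68, 0.50 to 2.81 and 0.57 to 2.48. The calls of small changes did not. After the correction for GC content and length, NCAPD2 was at 0.0074, also with the replicate block, and NCAPH2 was at 0.32. There 9 members were called higher and 0 lower, beside 32.7% and 33.3% of all genes. By at least 2-fold, 755 genes were called, against 1741 before and 755 with the block. The change of the ATPase minus NCAP difference was 0.94, against 2.18 before. After the correction for coding sequence and 3' UTR, NCAPD3 was at -0.22, NCAPG2 at -0.43 and NCAPH2 at 0.30. Here 6 members were called higher and 3 lower, beside 34.2% and 31.6% of all genes. By at least 2-fold, 0 members were called higher and 296 genes were called either way. The ATPase minus NCAP difference changed by 0.48. With median scaling NCAPH was at -0.17 and 3 members were called lower (56.9% of all genes), with quantile normalization NCAPH was at -0.013, and with DESeq2 NCAPH2 was at 0.013. The cause of these shifts was not tested.

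The labels do not say that replicate numbers mark pairs, and the deviations of same-numbered libraries correlated at 0.118. With the number as a block, 10389 genes were called, against 10032, and no member's call changed. The recovered reads gave 9806 called genes with edgeR and 8355 with DESeq2. Leaving out each library gave 8908 to 9283 called genes, 1694 to 1866 by at least 2-fold, 7 members higher, 1 lower and 5 by 2-fold, and a change of the ATPase minus NCAP difference of 2.10 to 2.26. Where that left 1 library in a group, it was taken to vary like the other group.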
